A study of Mus musculus with 9 samples.

Results

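The genes described are the INK4 and CIP/KIP inhibitors of the cell cycle and the pocket proteins that they act on, in cardiosphere-derived cells of the mouse heart. They were chosen by gene symbol, 9 of the 54532 genes counted: the INK4 genes Cdkn2a, Cdkn2b, Cdkn2c and Cdkn2d, the CIP/KIP genes Cdkn1b and Cdkn1c, and the pocket protein genes Rb1, Rbl1 and Rbl2. RNA was sequenced from 9 libraries, 3 of each of 3 groups, all from C57BL/6 mice. pECDCs are primary cells grown out of pieces of epicardium peeled from the ventricle, through cardiospheres, without treatment, at passage 0 according to the sample labels. iECDCs are such cells immortalized by lentiviral transfer of hTERT, which encodes the catalytic part of human telomerase, and kept to passage 30 without treatment. The cells of the third group were, by the labels, iECDCs at passage 30 treated for 3 days with SB431542, which blocks the type I receptor for TGF-β. The study's methods describe instead a treated epithelial clone derived from pECDCs, and for the pECDCs themselves a later passage than the labels give. The groups are named here as the labels give them, and comparisons with the treated cells carry this doubt. The vector, the selection with puromycin that the study describes and the number of passages all separate iECDCs from pECDCs. The labels do not say whether the 3 libraries of a group came from separate cultures, so the spread between them may be technical.

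The INK4 proteins bind the kinases Cdk4 and Cdk6 and keep them from pairing with D-type cyclins. The CIP/KIP proteins bind cyclin-kinase complexes, above all those of Cdk2. When the kinases are held back, Rb1, Rbl1 and Rbl2 (p107 and p130) stay unphosphorylated, bind E2F factors and repress the genes of DNA replication. Cdkn2a has a further product, p19ARF, read in another frame from another first exon, which binds Mdm2 and stabilizes p53. Cdkn2a and Cdkn2b are known to build up in primary mouse cells in culture, and TGF-β is a known inducer of Cdkn2b.

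Cdkn2a lies on chromosome 4 of GRCm38 from 89274471 to 89294653 on the minus strand, and Cdkn2b 11.6 kb further on, from 89306299 to 89311039 on the same strand. Cdkn2c is on the same chromosome, 20.4 Mb away. The promoter sequences of Cdkn2a and Cdkn2b are shown because these genes, neighbours with separate starts, were counted in pECDCs and were at or near 0 in the other groups. They are the bases before the RefSeq start sites (GRCm38.p6), 5′ to 3′ on the minus strand, without any base in an annotated exon of the gene, and capitals mark an E2F-type motif.
Cdkn2a, start of the p19ARF transcript, chr4:89294654-89294869: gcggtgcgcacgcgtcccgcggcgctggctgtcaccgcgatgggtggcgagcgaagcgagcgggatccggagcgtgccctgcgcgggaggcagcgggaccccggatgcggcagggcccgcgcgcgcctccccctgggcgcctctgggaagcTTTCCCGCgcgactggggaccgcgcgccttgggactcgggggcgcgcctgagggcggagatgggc
Cdkn2a, start of the p16INK4a transcript, chr4:89282193-89282442: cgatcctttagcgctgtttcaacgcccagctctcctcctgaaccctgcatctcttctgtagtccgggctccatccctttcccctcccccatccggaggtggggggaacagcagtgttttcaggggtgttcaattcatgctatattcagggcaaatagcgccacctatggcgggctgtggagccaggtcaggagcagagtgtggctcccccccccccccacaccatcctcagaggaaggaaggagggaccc
Cdkn2b, chr4:89311040-89311282: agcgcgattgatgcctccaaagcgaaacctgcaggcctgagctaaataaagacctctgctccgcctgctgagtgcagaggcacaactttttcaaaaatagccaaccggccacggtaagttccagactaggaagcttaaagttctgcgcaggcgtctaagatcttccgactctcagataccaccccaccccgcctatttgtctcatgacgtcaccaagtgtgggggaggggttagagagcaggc
The p16INK4a stretch lies in the intron of the longer Cdkn2a transcript. In the full windows of 250 bases before each start, that of p19ARF had a GC content of 78.4% and 40 CpG dinucleotides, that of p16INK4a 60% and 7, and that of Cdkn2b 53.6% and 12, beside medians of 52.4% and 6 over 32851 such windows. The motifs searched, on both strands, were TTTGGCGC, TTTCGCGC, TTTCCCGC and TTTGCCGC. RefSeq start sites were at hand for 7 of the 9 genes, with 9 windows. A motif was found in 2 of the windows, TTTCCCGC before the p19ARF start and TTTCGCGC before Rbl1, and in 611 of all windows (1.86%).

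Total counts ranged from 16568306 to 23951392 per library, so that 3 counts, the floor used below, were 1.25e-05% to 1.81e-05% of a library, a floor for counting error alone. iECDC replicate 3 and SB431542 replicate 2 stood apart from their own group. Between pairs of libraries, chi-square per degree of freedom was at most 4.61 in all other pairs, but at least 24.9 with iECDC replicate 3 and at least 70.3 with SB431542 replicate 2, and values without them are given where leaving them out changed a call or a count by much. Thy1, Eng, Cd44 and Ly6a, surface markers of cardiosphere-derived cells, and the epicardial factor Tbx18 were present in every library, whereas Wt1 was at most 0.396 FPKM (reads scaled by gene length and library size). Cd44 averaged 67.5, 72.9 and 22.9 FPKM in pECDCs, iECDCs and treated cells, and Ly6a 4.76, 6.23 and 29.5. For both, the treated libraries did not overlap with the other groups, while for Thy1 and Eng they did. The epicardial markers Wt1, Tcf21 and Upk3b were higher in every treated library than in the other groups. In pECDCs, iECDCs and treated cells Wt1 averaged 0.0484, 0.0119 and 0.284 FPKM, Tcf21 0.731, 0.516 and 1.43, and Upk3b 0.130, 0.120 and 1.28. Blood, endothelial and epithelial markers (Ptprc, Pecam1, Kdr, Cdh5, Cdh1, Epcam, Krt18) were at or near 0 throughout, each at most 0.140 FPKM. The summed level of the fibroblast and mural markers Col1a1, Pdgfra and Acta2 ran from 1368 to 1403 FPKM in pECDCs, from 1316 to 2509 in iECDCs and from 686 to 931 in treated cells, but its genes moved apart: Acta2 was 728 ± 11.99, 1186 ± 617 and 199 ± 107 FPKM and Pdgfra 15.6 ± 0.509, 10.6 ± 0.260 and 20.5 ± 2.54 (SD, n = 3). The cardiomyocyte markers Tnnt2, Myh6 and Actn2 summed to 0.437 to 0.668 FPKM in pECDCs, 1.12 to 1.68 in iECDCs and at most 0.250 in treated cells, with no overlap, and nearly all of it was Tnnt2. The part of these markers in the results below was not tested.

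The 4 INK4 genes differed among themselves (the stacked plot of INK4 levels). Cdkn2a and Cdkn2b were read in pECDCs and were not detected or nearly so at this depth in the 6 other libraries, while Cdkn2c and Cdkn2d were read in all 9. Cdkn2a had 550, 407 and 562 counts in pECDC replicates 1, 2 and 3, 0, 1 and 0 in iECDCs and 0 in each treated library. Cdkn2b, which encodes p15INK4b, had 181, 183 and 188 counts in pECDCs and 0 in all other libraries. pECDCs did not overlap with the other groups for either gene. In bulk libraries fewer cells that express a gene and less RNA per cell cannot be told apart.

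**Figure D1:**
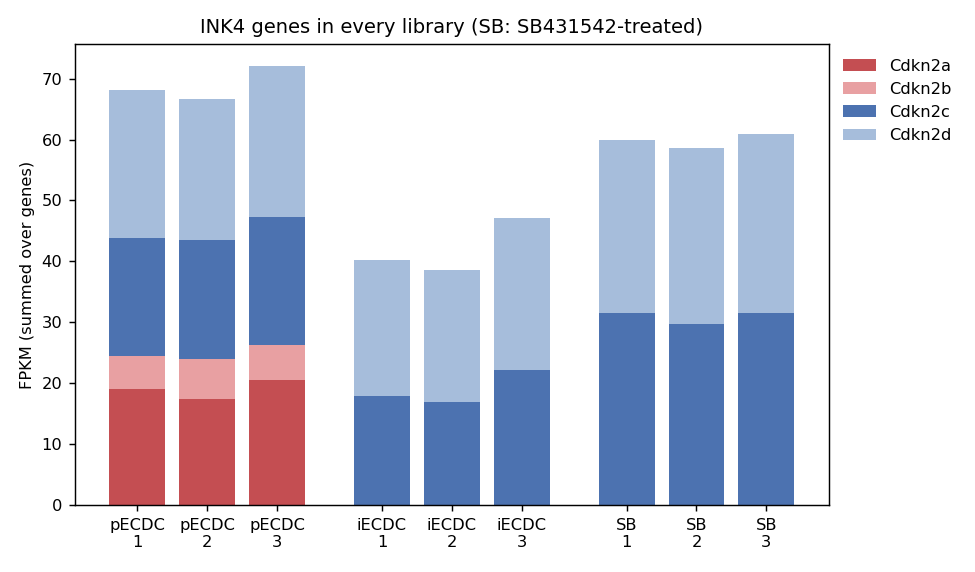
Level of the 4 INK4 genes in every library, stacked, in FPKM (vertical axis). The horizontal axis gives group and replicate, with SB for the SB431542-treated cells. The segments of Cdkn2a and Cdkn2b, which together hold 36.2% of the mean sum in pECDCs, are at or near 0 in the 6 other libraries.

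In FPKM, Cdkn2a was 19.1, 17.4 and 20.5 in the pECDC libraries, 19.0 ± 1.55 (SD, n = 3), and 0.0519 in the single iECDC library with a count. Cdkn2b was 5.31, 6.61 and 5.79, or 5.90 ± 0.659 (SD, n = 3), in pECDCs. Taken against a floor of 3 counts in each library, and with counts scaled by edgeR's TMM factors, Cdkn2a was at least 128-fold lower in iECDCs and at least 139-fold lower in treated cells than in pECDCs. For Cdkn2b the bounds were 47.2-fold and 51.0-fold. Between iECDCs and treated cells no fold can be given, since both groups were at the floor.

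Counts per gene do not separate p16INK4a from p19ARF. Of the 753 stretches of 100 bases in the p16INK4a transcript (852 bases), 479 (63.6%) also occur in the p19ARF transcript (895 bases). Neither shares such a stretch with Cdkn2b, or with the transcripts of any other gene.

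Cdkn2c, which encodes p18INK4c (chromosome 4, 109660876 to 109667189), had similar levels in pECDCs (19.4, 19.5 and 20.9 FPKM) and iECDCs (17.9, 16.9 and 22.2) and higher levels in treated cells (31.5, 29.7 and 31.5). The means were 19.9 ± 0.871, 19.0 ± 2.82 and 30.9 ± 1.04 FPKM (SD, n = 3). iECDCs overlapped with pECDCs, and all treated libraries lay above both other groups. The log2 fold change was -0.08 (SE 0.10) in iECDCs against pECDCs, 0.71 (SE 0.122) in treated cells against iECDCs and 0.64 (SE 0.068) against pECDCs. Without iECDC replicate 3, the highest of its group, the first of these was -0.20 (SE 0.0590) and was called by edgeR.

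Cdkn2d, which encodes p19INK4d (chromosome 9, 21288410 to 21291407), was the highest of the 9 genes in pECDCs. It had 24.2, 23.1 and 24.8 FPKM in pECDCs, 22.3, 21.7 and 24.97 in iECDCs, and 28.4, 28.9 and 29.5 in treated cells. Again the treated libraries lay above the others, by a smaller step than for Cdkn2c. The log2 fold change was -0.08 (SE 0.075) between iECDCs and pECDCs, 0.34 (SE 0.10) between treated cells and iECDCs and 0.28 (SE 0.068) between treated cells and pECDCs. edgeR called Cdkn2d in the latter 2 comparisons, and so did 6 of 12 alternative settings in each. The call against iECDCs was lost without iECDC replicate 1 (0.32) or 2 (0.30) and without SB431542 replicate 1 (0.36) or 3 (0.33), and the call against pECDCs without SB431542 replicate 3 (0.26) or pECDC replicate 1 (0.28), 2 (0.24) or 3 (0.29).

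Summed over the family, the INK4 level was 68.9 ± 2.80 FPKM in pECDCs, 42.0 ± 4.54 in iECDCs and 59.9 ± 1.15 in treated cells (SD, n = 3). In treated cells it was made up of Cdkn2c and Cdkn2d alone. The 3 groups did not overlap in this sum.

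**Figure D2:**
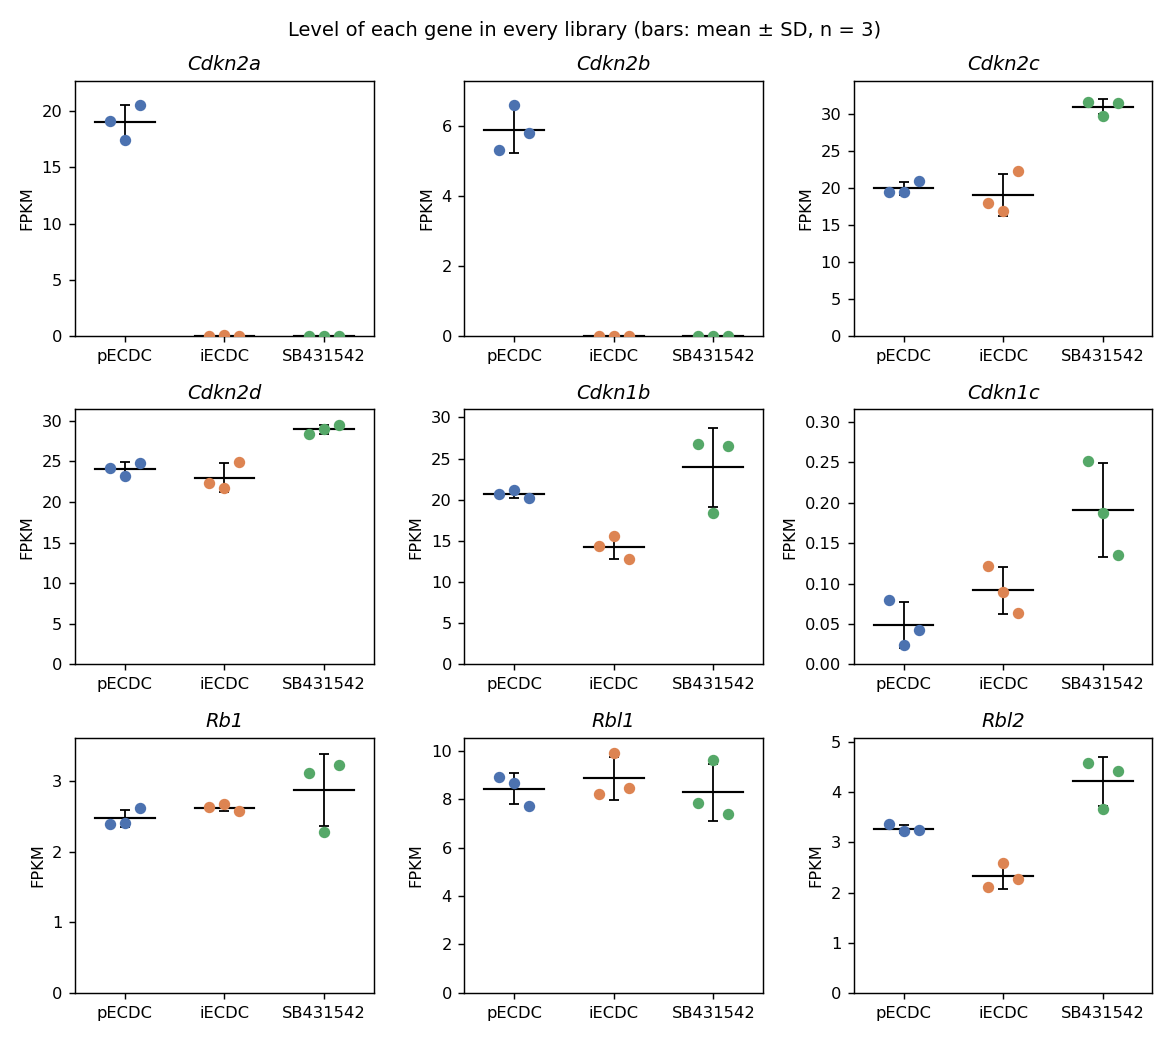
Level of each of the 9 genes in FPKM (vertical axes, each from 0) in the 3 libraries of each group (points), with mean and SD (bars). Cdkn2a and Cdkn2b are at or near 0 outside pECDCs, and Cdkn1b and Rbl2 are lowest in the 3 iECDC libraries.

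Of the CIP/KIP genes, Cdkn1b, which encodes p27KIP1 (chromosome 6, 134920401 to 134925513), was lower in iECDCs and higher again in treated cells. It had 20.7, 21.1 and 20.2 FPKM in pECDCs, 14.4, 15.6 and 12.8 in iECDCs, and 26.8, 18.4 and 26.6 in treated cells. All iECDC libraries lay below both other groups, while treated replicate 2 lay below the pECDCs and the other treated libraries above them. The log2 fold change was -0.55 (SE 0.080) in iECDCs against pECDCs and 0.76 (SE 0.164) in treated cells against iECDCs. Between treated cells and pECDCs it was 0.22 (SE 0.146), and 0.38 (SE 0.0431) without SB431542 replicate 2, with which edgeR made no call and without which it did. In the fit of all 9 libraries together Cdkn1b was no longer called between iECDCs and pECDCs, at the same log2 fold change of -0.55 (SE 0.138). Without iECDC replicate 1 it was not called between treated cells and iECDCs (0.76, SE 0.203).

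Cdkn1c, which encodes p57KIP2 and is an imprinted gene (chromosome 7, 143458339 to 143461050), was barely read in any group. Its counts were 4, 1 and 2 in pECDCs, 5, 3 and 2 in iECDCs and 9, 8 and 5 in treated cells. It passed edgeR's filter on low counts in no comparison. The ratio of summed counts, scaled to the same depth, was 1.85 for iECDCs against pECDCs (95% interval 0.634 to 5.71), 2.03 for treated cells against iECDCs (0.924 to 4.81) and 3.78 for treated cells against pECDCs (1.56 to 10.5). These intervals cover counting error only. Of its stretches of 100 bases, 19.5% also occur in the transcripts of the overlapping gene Gm44732.

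The pocket protein genes split in another way. Rbl2 was lower in iECDCs and higher in treated cells, whereas Rb1 and Rbl1 overlapped between all groups. Rbl2, which encodes p130, the pocket protein of resting cells (chromosome 8, 91070057 to 91123844), had 3.37, 3.22 and 3.24 FPKM in pECDCs, 2.11, 2.60 and 2.27 in iECDCs, and 4.58, 3.67 and 4.42 in treated cells. The 3 groups did not overlap, with treated cells highest and iECDCs lowest.

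The log2 fold change of Rbl2 was -0.51 (SE 0.094) in iECDCs against pECDCs, 0.87 (SE 0.139) in treated cells against iECDCs and 0.37 (SE 0.105) in treated cells against pECDCs. The first 2 were called by edgeR and in all 12 alternatives, and the third in 6 of them. The third was not called without SB431542 replicate 1 (0.31) or 3 (0.34) or pECDC replicate 1 (0.39), 2 (0.36) or 3 (0.36). Part of Rbl2 lies over Aktip and Gm45464 on the other strand, 13.6% of its stretches of 100 bases occur in their transcripts, and the strand setting of the counting is not given in the sources used here.

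Rb1, the retinoblastoma gene (chromosome 14, 73183673 to 73325822), had 2.39, 2.41 and 2.61 FPKM in pECDCs, 2.63, 2.67 and 2.57 in iECDCs, and 3.11, 2.28 and 3.22 in treated cells. Its log2 fold change was 0.07 (SE 0.088), 0.14 (SE 0.159) and 0.22 (SE 0.147) in the same 3 comparisons. Without SB431542 replicate 2, its lowest library, the last was 0.37 (SE 0.0850) and was called. Of the Rb1 stretches of 100 bases, 8.72% also occur in transcripts of Lpar6 and Rcbtb2, which overlap Rb1 on the other strand. Rbl1, which encodes p107, the pocket protein of dividing cells and itself an E2F target (chromosome 2, 157145893 to 157204534), ran from 7.72 to 8.91 FPKM in pECDCs, from 8.21 to 9.89 in iECDCs and from 7.40 to 9.61 in treated cells. Its log2 fold change was 0.06 (SE 0.091), -0.09 (SE 0.131) and -0.02 (SE 0.113).

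**Figure D3:**
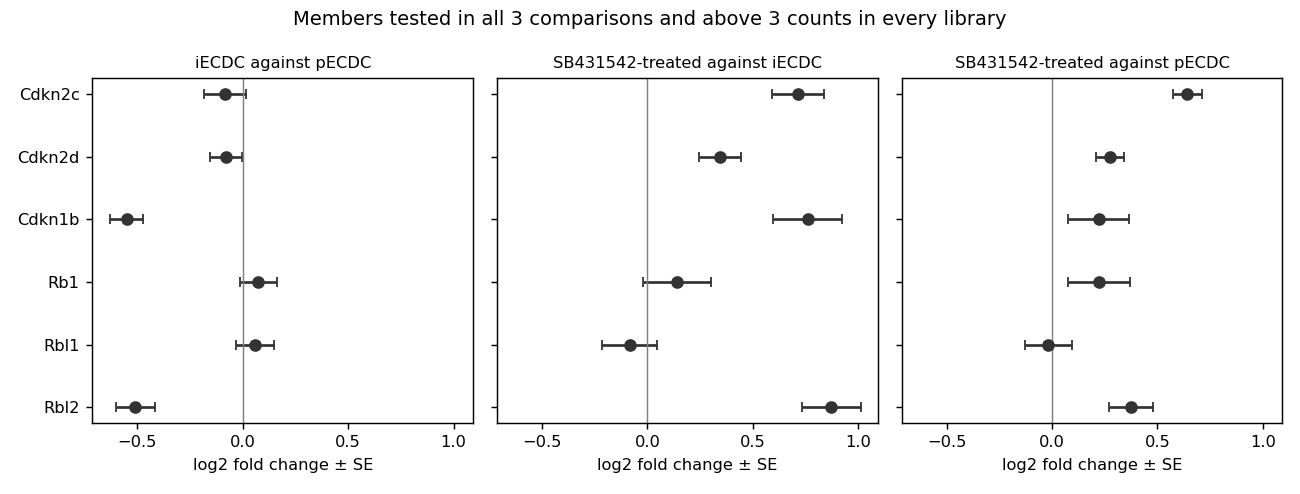
Log2 fold change with its SE (horizontal axes) of the 6 genes that were tested in all 3 comparisons and had more than 3 counts in every library. Cdkn1b and Rbl2 lie below 0 in iECDCs against pECDCs and above 0 in treated cells against iECDCs, and Cdkn2c is the highest in treated cells against pECDCs.

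Between iECDCs and pECDCs, 8 of the 9 genes passed the filter and edgeR's quasi-likelihood test called 4, all lower in iECDCs (Cdkn2a, Cdkn2b, Cdkn1b and Rbl2), where 16.4% of the 13752 genes tested were called in either direction and 9.21% lower. None was called higher, and none had an unadjusted p-value under 0.05 on that side, in edgeR or in DESeq2. Between treated cells and iECDCs, 6 passed and 4 were called, all higher (Cdkn2c, Cdkn2d, Cdkn1b and Rbl2), where 30.0% of 13559 genes were called and 16.0% higher. Between treated cells and pECDCs, 8 passed and 5 were called, with Cdkn2c, Cdkn2d and Rbl2 higher and Cdkn2a and Cdkn2b lower, where 34.8% of 14015 genes were called, 17.9% higher and 17.0% lower. In FPKM, 4 of the 9 genes lay below pECDCs in every iECDC library and 0 above, where 39.9% of all genes tested did not overlap (20.7% higher and 19.2% lower). Of the 9, 5 lay above iECDCs in every treated library (46.5% of all, 23.0% higher and 23.5% lower), Cdkn1c among them, and 4 lay above and 2 below pECDCs in every treated library (51.5% of all, 25.1% higher and 26.4% lower). Cdkn2a and Cdkn2b passed the filter through their pECDC counts alone, so they could only be called lower in the other group. The 9 genes were chosen on these values, so the counts describe the choice. The comparisons share libraries and are not independent of each other. The median log2 fold change of the 6 genes with one was -0.08, 0.53 and 0.25 in the 3 comparisons, beside medians of -0.0018, 0.0014 and 0.0068 over all genes.

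The order of the levels, per length, changed with the group. In pECDCs Cdkn2d stood above Cdkn1b, Cdkn2c and Cdkn2a, which overlapped with their neighbours, and then came Rbl1, Cdkn2b, Rbl2, Rb1 and Cdkn1c with no overlap between neighbours. In iECDCs Cdkn2d and Cdkn2c overlapped, Cdkn1b and Rbl1 followed, and Rb1 and Rbl2 overlapped. In treated cells the order was Cdkn2c, Cdkn2d, Cdkn1b, Rbl1, Rbl2, Rb1 and Cdkn1c, with no overlap between neighbours.

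The region around Cdkn2a held other transcribed genes (the plot of the neighbouring genes). Within 1000 kb of the lower-coordinate end of Cdkn2a the table has 71 genes, of which 44 had no count in any library and 12, Cdkn2a and Cdkn2b included, had at least 10 counts in a library. The other 10 all lie on the side of Cdkn2a away from Cdkn2b, and each had counts above the floor in every iECDC library and in every treated library. Mtap, the nearest, encodes methylthioadenosine phosphorylase of the methionine salvage pathway. Its counts were 5334, 4358 and 5406 in pECDCs, 5234, 4389 and 3959 in iECDCs and 2850, 5125 and 2870 in treated cells.

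Mtap rose in iECDCs against pECDCs by 0.22 on the log2 scale (SE 0.059, adjusted p = 0.0351, edgeR), a call that 4 of 12 alternatives made. In treated cells against iECDCs its log2 fold change was -0.46 (adjusted p = 0.0721, edgeR), and 4 of 12 alternatives called it. Klhl9, an adaptor of a ubiquitin ligase, fell in iECDCs (log2 fold change -0.31, adjusted p = 0.0225, edgeR) and rose in treated cells against iECDCs (0.50, adjusted p = 0.0383, edgeR), calls that 8 and 5 of 12 alternatives made. The lincRNA Wincr1 was 21.9, 33.3 and 11.0 FPKM on average in the 3 groups. It fell in treated cells against iECDCs (-1.58, adjusted p = 0.0125, edgeR), as did the lincRNA AL805899.2 (-0.86, adjusted p = 0.0435, edgeR), the former in 11 and the latter in 4 of 12 alternatives. Hacd4, an enzyme of fatty acid elongation, rose in that comparison (1.49, adjusted p = 0.00725, edgeR). Focad, Gm12602, AL805899.1 and Mrpl48-ps passed in neither of these comparisons, and Gm13283 was too low to be tested in either. Gm12602 (-0.73, adjusted p = 0.0507, edgeR), AL805899.1 and Focad were called in treated cells against iECDCs in 6, 3 and 1 of 12 alternatives. In treated cells against pECDCs, AL805899.1 (-1.01, adjusted p = 0.0174, edgeR) and Wincr1 (-0.97, adjusted p = 0.0421) fell. Hacd4 (1.15, adjusted p = 0.0162, edgeR) and Focad (0.34, adjusted p = 0.0200) rose there. These calls were made in 8, 7, 7 and 5 of 12 alternatives, and edgeR called no other of these neighbours.

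**Figure D4:**
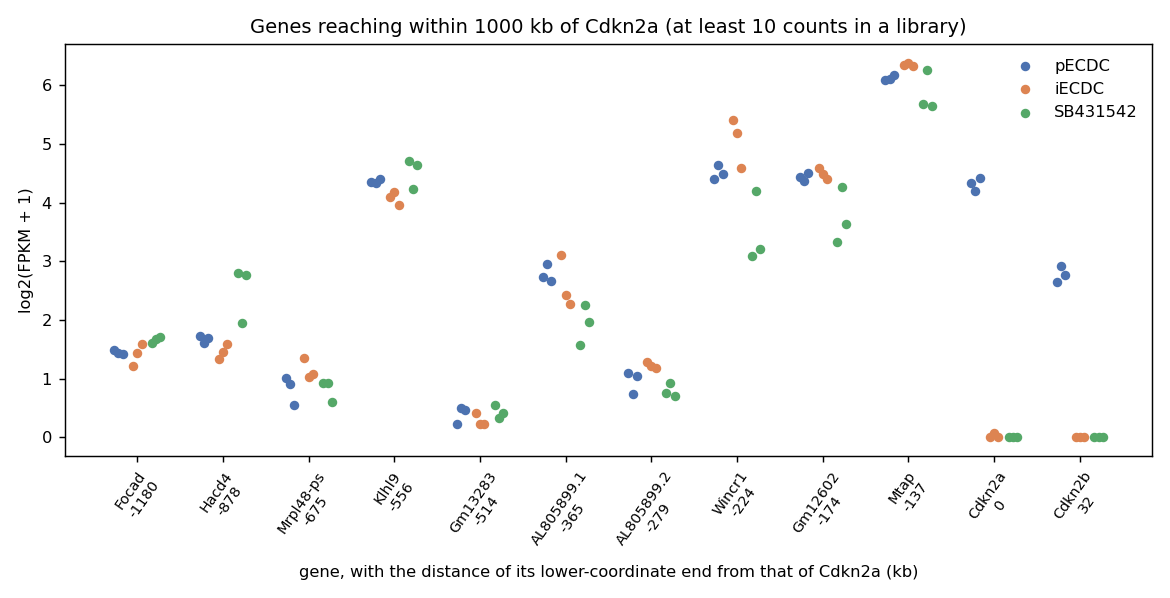
Level, as log2(FPKM + 1), of the 12 genes that reach within 1000 kb of Cdkn2a and had at least 10 counts in a library, 1 point per library and coloured by group. Under each name stands the distance in kb between the lower-coordinate ends of that gene and of Cdkn2a. Cdkn2a and Cdkn2b are the genes at or near 0 in iECDCs and treated cells, and Mtap is the highest in all 3 groups.

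The genes whose levels over the 9 libraries were most like those of Cdkn2a and Cdkn2b were on other chromosomes or far off. By Pearson's r of log2(FPKM + 1), among 10726 genes, they were Cd59a (r = 0.9995), Tnfrsf26 (0.9993) and Pdpn (0.9990) for Cdkn2a, and Barx1 (0.9997), Fam189b (0.998) and Zcchc3 (0.997) for Cdkn2b. Each point set falls into the 3 pECDC libraries and the 6 others, so r mostly reflects that split. Pdpn, the surface protein podoplanin, was 53.5 ± 3.33 FPKM in pECDCs, 0.243 ± 0.125 in iECDCs and 0.0758 ± 0.0390 in treated cells (SD, n = 3). Barx1, a homeobox gene, was 11.7 ± 0.892, 0.0263 ± 0.0231 and 0.0113 ± 0.0196 FPKM in the same groups. For Cdkn1c the values were lower, with Ttc7b (0.952), Zfp444 (0.948) and Prcc (0.927). Cdkn1c had at most 9 counts in a library, and these are the highest of 10726 values over 9 libraries. Counting noise can give such values, and no likeness to Cdkn1c is concluded from them.

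The kinases that INK4 proteins bind were compared next. Cdk4 was 121 ± 3.96 FPKM in pECDCs, 122 ± 3.33 in iECDCs and 118 ± 25.8 in treated cells (SD, n = 3), with log2 fold changes of 0.01 (SE 0.060, adjusted p = 0.968) and -0.04 (SE 0.158, adjusted p = 0.863, edgeR) in the first 2 comparisons. Cdk6 was far lower, at 2.77 ± 0.146, 3.24 ± 0.115 and 3.77 ± 0.456 FPKM, and rose in treated cells against pECDCs (0.45, SE 0.106, adjusted p = 0.0172, edgeR), with adjusted p-values of 0.0731 and 0.164 in the other comparisons. Ccnd1, their cyclin partner, ran from 64.0 to 67.4 FPKM in pECDCs, from 58.0 to 96.2 in iECDCs and from 32.1 to 70.1 in treated cells. edgeR called it in none of the comparisons, but 2 of 12 alternatives called it in treated cells against iECDCs and 1 of 12 against pECDCs, the fit without SB431542 replicate 2 among them in each, with lower levels in treated cells.

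Of 15 cyclin and kinase genes, 3 rose in iECDCs against pECDCs and 0 fell, beside 7.21% of all genes called higher and 9.21% lower. The 3 were Ccne1 (0.37, adjusted p = 0.0125, edgeR), Cdk1 (0.29, adjusted p = 0.0107) and the phosphatase gene Cdc25a (0.34, adjusted p = 0.00894). The number that rose was 6 without iECDC replicate 3, 1 without pECDC replicate 1, and 0 without pECDC replicate 2 or 3 and in the fit of all 9 libraries. In treated cells against iECDCs, 8 fell and 0 rose, beside 14.0% lower and 16.0% higher over all genes, with Ccne1 (-0.94, adjusted p = 0.0158, edgeR), Cdc25a (-0.89, adjusted p = 0.0113) and Ccne2 (-0.88, adjusted p = 0.0134) the strongest. In neither comparison had a gene of the list an unadjusted p-value under 0.05 in the other direction, and DESeq2 called 0 there as well. Without SB431542 replicate 2, 12 fell and 1 rose against iECDCs, and without another library between 3 (iECDC replicate 1) and 6 (iECDC replicate 3) fell, with 4 without iECDC replicate 2 or SB431542 replicate 3 and 5 without SB431542 replicate 1. Against pECDCs, 5 fell and 1, Cdk6, rose, beside 17.0% lower and 17.9% higher over all genes. These numbers were 13 and 1 without SB431542 replicate 2, and 3 or 4 and 0 without any one of the other libraries.

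Of 20 E2F target genes of DNA replication, all had log2 fold changes above 0 in iECDCs against pECDCs, with a median of 0.32, and 14 rose, where 7.21% of all genes were called higher. None fell, in edgeR or DESeq2, and none had an unadjusted p-value under 0.05 on that side. Orc1, of the origin recognition complex, was 3.74 ± 0.0373 FPKM in pECDCs and 5.43 ± 0.535 in iECDCs (0.52, SE 0.097, adjusted p = 0.00738, edgeR). Mcm5, of the replicative helicase, was 46.6 ± 0.747 and 65.4 ± 9.27 FPKM (0.48, SE 0.093, adjusted p = 0.00927, edgeR), and Tk1, thymidine kinase, gave 0.48 (adjusted p = 0.0223, edgeR). The number that rose was 0 in the fit of all 9 libraries, where 9 had an unadjusted p-value under 0.05. It was 19 without iECDC replicate 3 and 6, 5 and 5 without pECDC replicates 1, 2 and 3.

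In treated cells against iECDCs the median log2 fold change of these targets was -0.33 and 3 fell, namely Rrm2 (-1.25, adjusted p = 0.0228, edgeR), Cdc6 (-0.65, adjusted p = 0.0213) and Mcm4 (-0.52, adjusted p = 0.0388), a share close to the 14.0% of all genes called lower. Without SB431542 replicate 2, 17 fell, and without any one of the other libraries 0 did. In treated cells against pECDCs edgeR called 0 of 20, with 1 higher and 1 lower at an unadjusted p-value under 0.05 and 1 in each direction by DESeq2. Without SB431542 replicate 2, 13 fell and 1 rose. In that library Rrm2 was the highest of the treated group at 78.7 FPKM, beside 31.9 in the lowest.

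Of 10 E2F and DP factors, 2 rose in iECDCs against pECDCs, where 7.21% of all genes were called higher. They were E2f2 (0.53, adjusted p = 0.0261, edgeR) and E2f7 (0.39, adjusted p = 0.0183), in 6 and 9 of 12 alternatives. The number was 5 without iECDC replicate 3, 1 without iECDC replicate 1 or pECDC replicate 1, and 0 without pECDC replicate 2 or 3 and in the fit of all 9 libraries. E2f4, a partner of Rbl1 and Rbl2, was 31.3 ± 1.06 FPKM in pECDCs, 34.8 ± 0.400 in iECDCs and 21.7 ± 2.91 in treated cells (SD, n = 3). It fell in treated cells against iECDCs (-0.67, SE 0.115, adjusted p = 0.00550, edgeR), as did Tfdp1 (-0.46, adjusted p = 0.0461), while Tfdp2 rose (0.46, adjusted p = 0.00988). Without SB431542 replicate 2, 6 of the 10 fell, and without any one of the other libraries 1 did. Over all genes, with all libraries, 14.0% were called lower and 16.0% higher in this comparison. Of 7 genes of the MuvB complex, which joins the pocket proteins in repression, and its partners, 3 rose in iECDCs against pECDCs, beside the 7.21% of all genes. They were Mybl2 (0.52, adjusted p = 0.0374, edgeR), Foxm1 (0.40, adjusted p = 0.0497) and Rbbp4 (0.37, adjusted p = 0.0280), in 7, 5 and 8 of 12 alternatives. The number was 0 without any one pECDC library and in the fit of all 9. In treated cells against iECDCs Lin9 (-0.50, adjusted p = 0.0185, edgeR) and Lin54 (-0.42, adjusted p = 0.0433) fell, in 7 and 5 of 12 alternatives. The number was 3 without SB431542 replicate 2, 1 without iECDC replicate 3, and 0 without any one of the other libraries and under the replicate block.

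In the ARF and p53 axis, 9 genes were listed, binding partners and regulators of p19ARF or p53 among them. In iECDCs against pECDCs edgeR called 0 of them. At an unadjusted p-value under 0.05 in edgeR 2 were higher and 1 lower, and DESeq2 called 1 lower. Without iECDC replicate 3, edgeR called 3 higher and 1 lower. Trp53 was 37.3 ± 0.990 FPKM in pECDCs and 44.3 ± 5.77 in iECDCs (0.23, SE 0.091, adjusted p = 0.113, edgeR). Mdm2, which targets p53 for degradation and is itself a p53 target, was 42.9 ± 1.65 and 48.2 ± 3.87 FPKM (0.16, SE 0.075, adjusted p = 0.191, edgeR). Cdkn1a, the CIP/KIP gene for p21 and a p53 target, was 128 ± 3.40 and 141 ± 5.42 FPKM (0.12, SE 0.062, adjusted p = 0.217, edgeR). Its FPKM was above that of each of the 9 genes in every group.

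In treated cells against iECDCs, 4 of the 9 genes fell and edgeR and DESeq2 called 0 higher, with 1 higher at an unadjusted p-value under 0.05. Over all genes, edgeR called 14.0% lower and 16.0% higher. Without SB431542 replicate 2, 6 fell and 1 rose, and 2 fell without iECDC replicate 1 or 2 or SB431542 replicate 1 or 3. Mdm2 was 17.5 ± 3.00 FPKM (SD, n = 3) and fell against iECDCs by 1.45 on the log2 scale (SE 0.144, adjusted p = 0.000836, edgeR) and against pECDCs by 1.29 (SE 0.120, adjusted p = 0.000659, edgeR). Cdkn1a was 63.1 ± 18.1 FPKM and fell by 1.15 (SE 0.190, adjusted p = 0.00476, edgeR) and 1.02 (SE 0.182, adjusted p = 0.00626, edgeR). Both calls were made in all 12 alternatives. So in treated cells Cdkn1a was lower while Cdkn2c, Cdkn2d, Cdkn1b and Rbl2 were higher than in iECDCs. Npm1, nucleophosmin, which holds p19ARF in the nucleolus, fell against iECDCs as well (-0.55, adjusted p = 0.0370, edgeR). Trp53 itself gave -0.30 (SE 0.144, adjusted p = 0.149, edgeR).

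**Figure D5:**
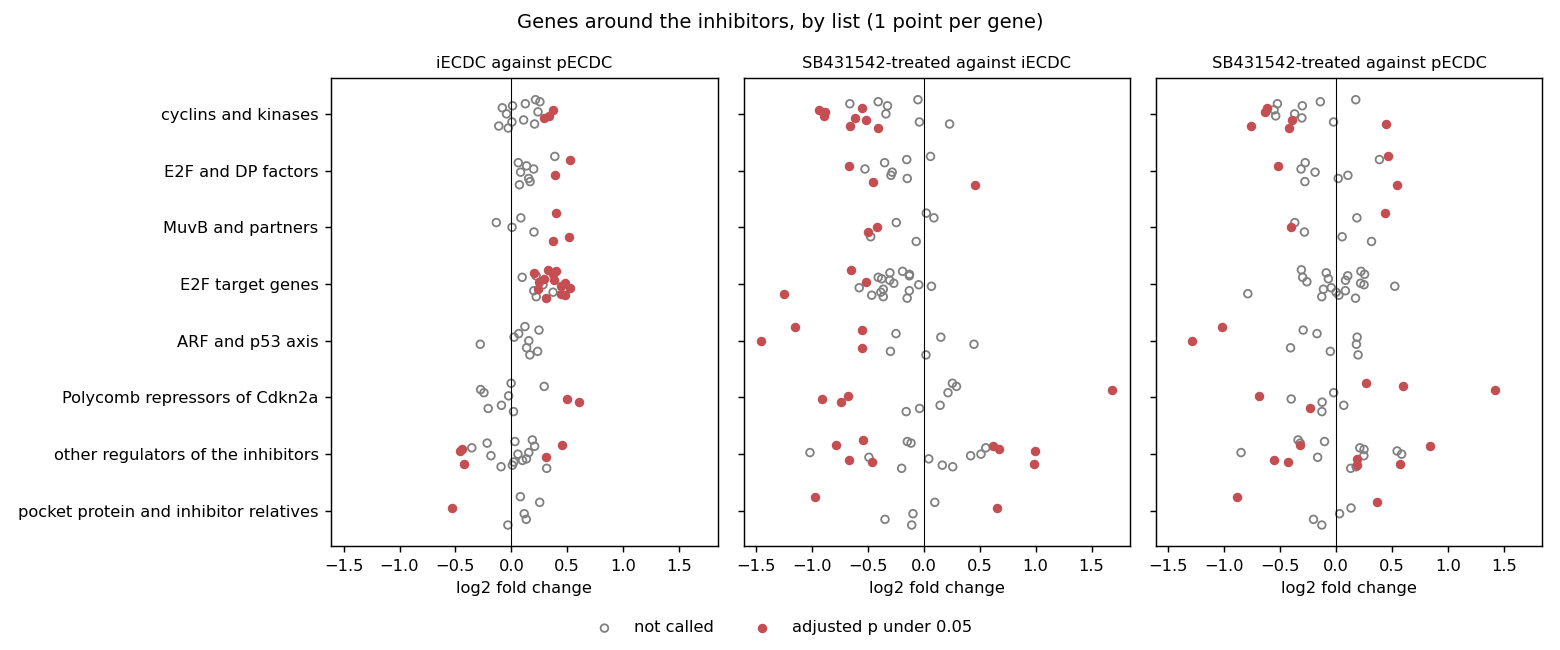
Log2 fold change (horizontal axes) of the genes around the inhibitors in the 3 comparisons, by list, 1 point per gene, filled where edgeR's adjusted p-value was under 0.05. The E2F target genes all lie above 0 in iECDCs against pECDCs, and 14 of their 20 points are filled.

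Polycomb complexes are known repressors of Cdkn2a and Cdkn2b. Of 10 of their genes, 2 rose in iECDCs against pECDCs, 4 without iECDC replicate 3 and 0 in the fit of all 9 libraries. Over all genes, 7.21% were called higher. The median log2 fold change of the 10 was -0.013, with 4 of them above 0. In treated cells against iECDCs 1 rose and 3 fell, beside 16.0% higher and 14.0% lower over all genes. Ezh2, the methyltransferase of Polycomb complex 2, was 11.5 ± 0.177 FPKM in pECDCs, 16.3 ± 0.643 in iECDCs and 8.62 ± 2.14 in treated cells (SD, n = 3), with a log2 fold change of 0.49 (SE 0.060, adjusted p = 0.000822, edgeR) in iECDCs and -0.91 (SE 0.165, adjusted p = 0.00669, edgeR) in treated cells against iECDCs. Phc2 followed the same order, with 23.3 ± 0.421, 35.9 ± 5.09 and 21.3 ± 7.15 FPKM, and 0.61 (adjusted p = 0.00301, edgeR) and -0.74 (adjusted p = 0.0379). Cbx7 was low in all groups but rose in treated cells against iECDCs (1.69, SE 0.292, adjusted p = 0.00554, edgeR).

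Among 19 other known regulators are Foxo4 and Foxo3, FOXO factors known to activate Cdkn1b and Rbl2. Foxo1 is listed too and is not described here, and a link of these factors to Cdkn1b or Rbl2 was not tested. Foxo4 was 6.26 ± 0.271 FPKM in pECDCs, 4.59 ± 0.358 in iECDCs and 9.09 ± 2.20 in treated cells (SD, n = 3), and fell in iECDCs (-0.46, SE 0.091, adjusted p = 0.00939, edgeR) and rose in treated cells against iECDCs (0.995, SE 0.192, adjusted p = 0.00834, edgeR). Foxo3 gave -0.44 (SE 0.066, adjusted p = 0.00256, edgeR) and 0.68 (SE 0.140, adjusted p = 0.0105, edgeR). Skp2, of the ubiquitin ligase that degrades p27KIP1, fell in treated cells against iECDCs (-0.67, SE 0.156, adjusted p = 0.0163, edgeR). Ets1, an activator of the p16INK4a promoter, rose in iECDCs against pECDCs (0.45, SE 0.058, adjusted p = 0.00109, edgeR) and fell in treated cells (-0.78, SE 0.094, adjusted p = 0.00149, edgeR). Smad3, which carries the TGF-β signal, rose in treated cells against iECDCs (0.99, SE 0.119, adjusted p = 0.00152, edgeR). Of the 19, 2 rose and 3 fell in iECDCs against pECDCs, and 4 rose and 4 fell in treated cells against iECDCs, shares not far from those over all genes (7.21% and 9.21%, 16.0% and 14.0%). The first pair of numbers was 7 and 3 without iECDC replicate 3, 4 and 3 without iECDC replicate 2, 1 and 3 without pECDC replicate 2 and 1 and 2 without pECDC replicate 3, and the second ran from 2 and 1 without iECDC replicate 1 to 7 and 6 without SB431542 replicate 2. Among 6 tested relatives of the pocket proteins and inhibitors, 1 fell in the first of these comparisons (Rbak, which binds Rb1, -0.53, adjusted p = 0.0229, edgeR), and in the next Rbak rose (0.65, adjusted p = 0.0275, edgeR) and Ccng1, a p53 target, fell (-0.97, adjusted p = 0.0129).

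Of 6 TGF-β response genes, 5 fell in treated cells against iECDCs, where 14.0% of all genes were called lower. The median log2 fold change of the 6 was -2.75. The list was made with earlier results of these data known, so it is no independent check of the inhibitor. Ctgf, a matricellular protein gene, was 444 ± 13.9 FPKM in iECDCs and 43.0 ± 24.2 in treated cells (SD, n = 3; -3.36, SE 0.356, adjusted p = 0.00102, edgeR). Tgfbi was the exception and rose (3.53, adjusted p = 0.00405, edgeR). Cdkn2b, a known TGF-β target, was already at 0 counts in untreated iECDCs.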

How the data were processed

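The authors deposited raw read counts per gene and FPKM for 54532 mouse genes in 9 libraries. The submitters' processing notes name mm9, Bowtie2 2.0.6 and TopHat2 2.0.9, but the deposited coordinates equal those of GENCODE release 21 on GRCm38 for 53499 genes. The counter and its strand setting are not given in the sources used here. The sources also name different library kits, and the study's methods give fewer biological replicates than the 3 libraries per group used here. The same table holds the authors' group means (deposited as signal), log2 fold changes and p-values of their own comparisons, which were not used. Of the symbols, 27 written as dates by a spreadsheet were restored. For Pkm in pECDC replicate 3 the deposited count and FPKM did not match. hTERT, a human gene, was not analysed here.

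Counts were tested with edgeR 4.0.16 (R 4.3.3): TMM, filterByExpr (minimum count 10, total 15), quasi-likelihood test, Benjamini-Hochberg adjustment over all genes tested (called: adjusted p under 0.05), fitting each comparison on its own 6 libraries. Log2 fold changes and SEs come from this fit. The fit was tested first on data simulated for iECDCs against pECDCs, with the same dispersion for all genes and no outlying library. That does not cover the comparisons with treated cells. The 9 genes and all gene lists were chosen with earlier results of these data known, so the 9 are described without p-values. Alternatives were DESeq2 1.42.0, RLE size factors, no filter, all 9 libraries, a replicate block, limma 3.58.1 on log2(FPKM + 1) and leaving out each library, 12 per comparison. Of each of 9 lists (103 genes in the table), those named are up to 3 genes per comparison with the largest called change and at least 1 FPKM, and always Cdkn1a, Mdm2, Trp53, Ccnd1, Cdk4, Cdk6, Mtap and the genes near Cdkn2a. Skp2, Foxo3 and E2f4 values outside a comparison where the rule names them, and the Ctgf value in treated cells against iECDCs, complete the order of the groups. Results of 1 listed gene are not reported here. Depth limits the precision of Cdkn1c above all.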

Additional observations from a re-analysis of the deposited data

How the results depend on the processing

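The number of genes called ranged from 1036 to 4467 when 1 library was left out of iECDCs against pECDCs (2258 with all, 4467 without iECDC replicate 3), from 1707 to 7001 in treated cells against iECDCs (4061 with all, 7001 without SB431542 replicate 2) and from 2453 to 9188 in treated cells against pECDCs (4881 with all, 9188 without SB431542 replicate 2). Among the listed pathway genes the numbers were 14 to 60, 20 to 75 and 18 to 82, beside 34, 40 and 32 with all libraries. With all 9 libraries in the fit, 671 genes and 3 pathway genes were called between iECDCs and pECDCs. Labels number the replicates alike, and deviations of same-numbered libraries from their group means correlated at -0.244 to 0.0373. These values give no sign of pairing. They cannot exclude it, since iECDC replicate 3 and SB431542 replicate 2 weigh heavily on the deviations in groups of 3. The replicate block gave 1791, 3038 and 3886 genes called and 28, 33 and 28 pathway genes, and no longer called Cdkn2d against either group or Rbl2 in treated cells against pECDCs. Of the 9 genes' log2 fold changes, that of Rbl1, never called, was the one to change sign, in 2 of 12 alternatives in iECDCs against pECDCs and in 3 in treated cells against pECDCs. Cdkn2a and Cdkn2b were called against pECDCs in all 12, but with counts at or near 0 outside pECDCs they could only be called lower. The cause of these differences was not tested.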
